A study of Mus musculus with 27 samples.

Results

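A set of 10 genes that mark or direct the myeloid lineage was followed in mouse erythroleukaemia (MEL) cells, an erythroid progenitor line grown from a leukaemia. They were taken by symbol from the RNA-Seq tables, which list between 16465 and 18519 genes each. They are the granule genes *Mpo*, *Prtn3*, *Elane* and *Ctsg*, the receptor genes *Csf1r*, *Csf2rb*, *Fcer1g* and *Itgam*, and the transcription factor genes *Cebpa* and *Cebpb*. The 21 libraries fall into 5 comparisons, each with its own controls. The *Cbfa2t3* (ETO2) knockdown (KD) has 2 libraries labelled WT and 4 KD libraries, 2 with the short hairpin sh2 and 2 with sh3. The *Irf2bp2* KD has 2 libraries labelled WT and 2 with the hairpin sh1, and the *Kdm1a* (LSD1) KD has 1 library labelled WT and 2 KD libraries. The *Gfi1b* KD, made with siRNA, has 2 libraries labelled WT and 2 KD libraries, and the differentiation experiment has 2 libraries of non-induced and 2 of induced MEL cells. All come from MEL cells, according to the methods of 1 clone of the line, so the replicates, which the methods call biologically independent, are repeats in 1 cell line, and the p-values measure the spread between them. The controls carry a non-targeting hairpin or siRNA.

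Granulocytes and monocytes arise from progenitors in which the factors C/EBPα and PU.1 switch on genes for granule enzymes and for cytokine and Fc receptors. *Mpo*, *Prtn3*, *Elane* and *Ctsg* code for myeloperoxidase, proteinase 3, neutrophil elastase and cathepsin G of the neutrophil azurophil granule. *Csf1r* codes for the macrophage colony-stimulating factor receptor, *Itgam* for the integrin CD11b, *Fcer1g* for the signalling γ-chain of Fc receptors, and *Csf2rb* for the common β-chain that the receptors for GM-CSF, IL-3 and IL-5 use. Mice carry a close relative, *Csf2rb2*, whose product serves the IL-3 receptor. Mature erythroid cells do not make the granule enzymes, whereas erythroid progenitors can still express the common β-chain. GFI1B recruits LSD1, a histone demethylase, to repress genes, and ETO2 and IRF2BP2 are corepressors of the same network, so the KDs ask whether genes of another lineage come on when a repressor is lost.

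In these cells only 3 of the 10 genes were measurable, and 1 of them, *Csf2rb*, was higher in every library labelled KD than in the controls of its table. The share of all genes separated in this way was not computed. In 1 of these libraries, labelled *Gfi1b* KD replicate 1, *Gfi1b* RNA was above its controls. *Csf2rb* rose 1.87-fold in the *Cbfa2t3* KD and 1.90-fold in the *Irf2bp2* KD, was 2.31-fold higher in the *Kdm1a* KD, where the 1 control gives no spread of its own, and was 2.79-fold higher in the *Gfi1b* KD, where it did not pass the test across all genes. *Prtn3* and *Cebpb* were called changed in none of the 5 comparisons. The other 7 genes stood between 0 and 8 reads in every library that lists them, the libraries of the *Kdm1a* and *Gfi1b* KDs included. A call required, in edgeR's quasi-likelihood test with p-values adjusted over all genes, an adjusted p no higher than 0.05 together with a log2 fold change of at least 0.5 in size. For the *Kdm1a* KD it required a log2 difference of at least 0.5, in 1 direction, in each KD library.

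A library of the hairpin experiments held 44519414 to 57684583 counted reads, and a library of the *Gfi1b* or differentiation experiment 9929311 to 19623105. A floor of 3 counts was 0.0519 to 0.0676 CPM (counts scaled to a library of 1000000) in the former and 0.149 to 0.302 CPM in the latter. The targeted RNAs were lower where they were targeted by hairpin, by a log2 of 1.21 for *Cbfa2t3*, 0.33 for *Irf2bp2* and 3.19 for *Kdm1a*. *Gfi1b* RNA went against a label. It stood at 122.2 and 144.9 CPM in the controls, at 215.5 CPM in the library labelled *Gfi1b* KD replicate 1 and at 76.3 CPM in the library labelled *Gfi1b* KD replicate 2, so the fold changes of members and *Csf2rb2* in this table are given with and without each of those libraries, and other genes named for it by the level in each library. All tables list the 9 genes of an erythroid list. Of these (*Gata1*, *Klf1*, *Slc4a1* and others), 7 rose in the *Cbfa2t3* KD (against 2.99% of all genes tested), 9 in the *Irf2bp2* KD (10.1%) and 8 on induction (12.4%), whereas in the *Kdm1a* KD none was higher (13.1%) and 4 were lower (9.8%). Of 8 tested in the *Gfi1b* KD none was called, nor was any other gene, and their median log2 fold change was 0.66. The erythroid list summed to 1327 CPM in 1 library labelled *Gfi1b* KD and 3612 CPM in the other. In the *Gfi1b* controls it summed to 1260 and 1379 CPM, so the libraries labelled KD differed widely in erythroid expression. The part of these erythroid changes, and of this difference, in the myeloid results was not tested. In RNA from whole cultures, a few cells that express a gene strongly and many cells that express it weakly cannot be told apart.

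The granule genes *Mpo*, *Elane* and *Ctsg* and the genes *Csf1r*, *Itgam*, *Fcer1g* and *Cebpa* gave 99 values, counting a library only where its table lists the gene. Of these values 81 were at or under 3 reads and the highest was 8. Each table lists only genes with at least 1 read, and *Ctsg* is listed in 1 table, with a single read in an sh2 library, while *Cebpa*, the factor that starts granulocyte development, is listed in 1 table, with a single read in an *Irf2bp2* control. None of the 7 genes passed the filter on low counts in any comparison, so none was tested.

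*Mpo* had 2 and 3 reads in the *Cbfa2t3* controls, 4 and 6 with sh2 and 2 and 3 with sh3. The *Irf2bp2* controls held 0 and 4 reads of it, against 1 and 0 under KD. In the *Kdm1a* table it had 0 reads in the control and 7 and 1 in the KD libraries. *Mpo* is not listed in the *Gfi1b* and differentiation tables. The 8 reads of the *Kdm1a* KD were at least 1.30-fold higher than a control at the floor, and the exact 95% interval of the ratio, which covers counting error only, reached down to 0.835, so a difference of *Mpo* was not detectable at this depth.

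*Elane* had 5 and 7 reads in the *Cbfa2t3* controls, 8 and 3 with sh2 and 2 and 1 with sh3, and 3 and 1 in the *Irf2bp2* controls against 1 and 1 in the KD. In the *Kdm1a* KD it went from 2 reads in the control to 8 and 5, a ratio of 3.18 with an exact 95% interval of 0.720 to 29.0. The interval includes no change, so a difference of *Elane* was not detectable at this depth. The gene is not listed in the *Gfi1b* table.

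*Fcer1g* had 0 reads in the *Kdm1a* control and 4 and 7 in the KD libraries. That is at least 1.79-fold higher than a control at the floor of 3 reads, and the exact 95% interval of the ratio reached down to 1.23, so the 2 groups of reads differed by more than counting error. The *Cbfa2t3* controls, sequenced to a similar depth, held 4 and 4 reads of *Fcer1g*, and the KD libraries there held 1, 1, 1 and 6. The controls of the *Irf2bp2* table held 0 and 5 reads, so 4 to 7 reads lay within the range of control libraries of other tables or close to it. In the *Gfi1b* table *Fcer1g* had 0 and 1 reads in the controls, 0 in the library labelled KD replicate 1 and 2 in the library labelled KD replicate 2.

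*Csf1r* was highest in a non-induced library of the differentiation experiment, with 6 and 2 reads before induction and 0 and 0 after it. The exact 95% interval of the ratio of induced to non-induced cells ran from 0 to 0.656. *Csf1r* in the *Gfi1b* table had 0 and 4 control reads and none in either library labelled KD, with an interval from 0 to 1.21. In the hairpin tables it stayed between 0 and 3 reads. *Itgam* had 2 and 3 reads in the *Irf2bp2* controls and 0 in both KD libraries, 0 in the *Kdm1a* control and 2 and 1 in its KD libraries, and 0 or 1 in the libraries of the *Cbfa2t3* and differentiation tables.

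Summed over the 7 genes, the *Kdm1a* KD libraries held 23 and 15 reads and their control 2. The *Cbfa2t3* controls held 14 and 16 reads and the *Irf2bp2* controls 5 and 16, so the *Kdm1a* control is the lowest of the 5 controls of the hairpin experiments and the 15 reads lie among the values of the others. As CPM the sum was 0.429 and 0.327 in the *Kdm1a* KD libraries, 0.0406 in their control and between 0.102 and 0.327 in the other hairpin controls. In the *Gfi1b* table the sum was 0 and 5 reads in the controls, 0 in the library labelled KD replicate 1 and 2 in the library labelled KD replicate 2.

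**Figure D1:**
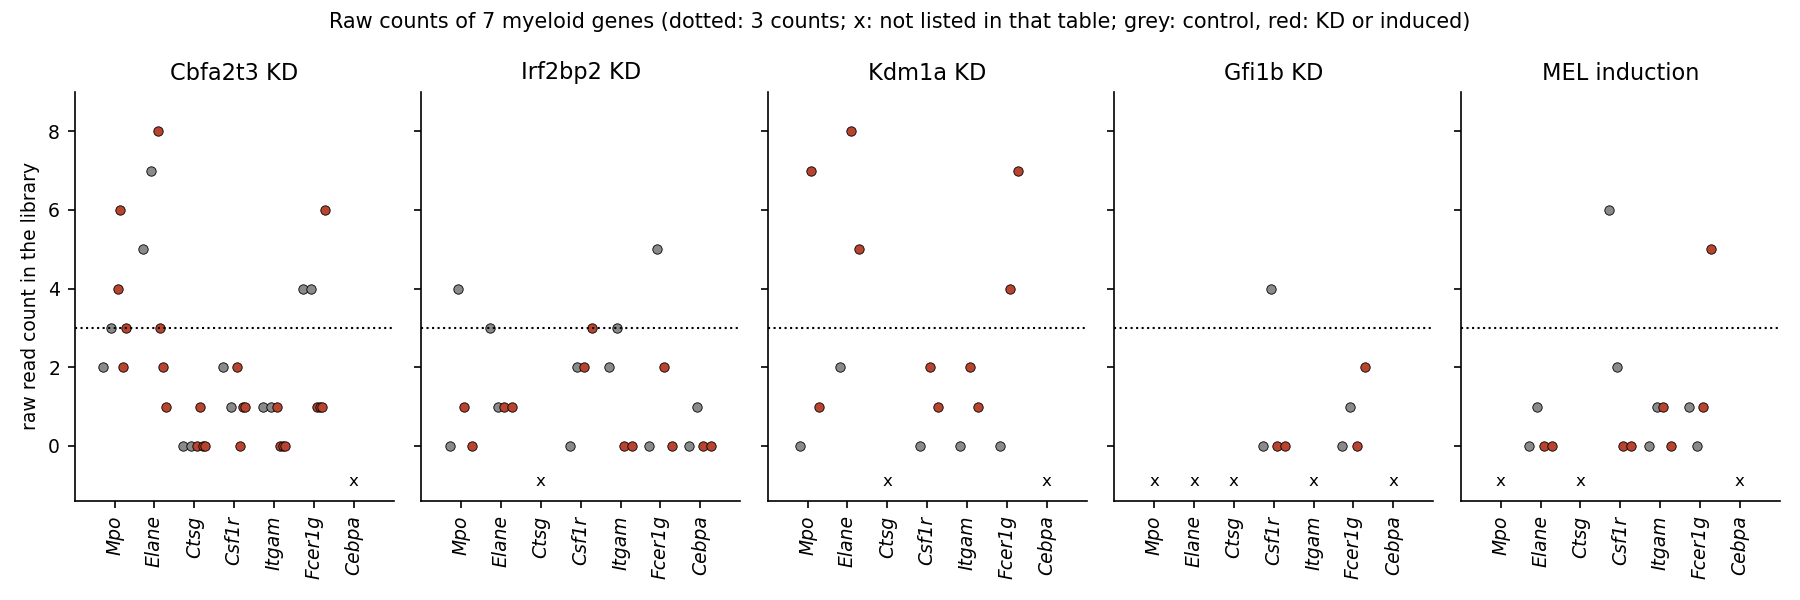
Raw read counts (vertical axis) of 7 myeloid genes (horizontal axis) in each library of the 5 tables, with controls in grey and KD or induced libraries in red. The dotted line marks the floor of 3 counts and an x marks a gene that the table does not list. The highest point is 8 reads, and in the *Kdm1a* panel *Mpo*, *Elane* and *Fcer1g* have a KD library at 7 or 8 reads.

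*Csf2rb* and its relative *Csf2rb2* lie head to head on chromosome 15 of mm9. *Csf2rb* runs from 78156420 to 78184277 on the plus strand and *Csf2rb2* from 78112947 to 78136052 on the minus strand, with 20368 bp between their start sites. The authors' list of 13229 ETO2 and IRF2BP2 binding sites places 4 sites in this interval and at its ends, described here because both genes were higher in each of the KDs. A shared site, one that both proteins occupy, has its centre 16 bp upstream of the *Csf2rb* start site (8.83-fold enriched over IgG in the authors' list), and another 29 bp upstream of the *Csf2rb2* start site (10.7-fold). Between them lie 2 ETO2-only sites, 13363 bp (18.2-fold) and 7096 bp (6.6-fold) upstream of *Csf2rb*. All 4 are intergenic in the GENCODE annotation of mm9. Sequences are shown for the *Csf2rb2* promoter site, both ETO2-only sites and a further shared site outside the interval. The last is shown because it holds the GATA pattern AGATAA, which the ETO2-only windows lack. Only this form of the motif that the paper writes as WGATAR (W for A or T, R for A or G) was searched. The ETO2-only window near *Csf2rb2* holds AGATAG, another form, which is not marked below. The first line below is the stretch of 200 bases upstream of *Csf2rb2*, at chr15:78136053-78136252 on the minus strand, with the PU.1 pattern GAGGAAGT, here on the opposite strand, in capitals. The next pair are the windows of 201 bases around the centres of the ETO2-only sites, at chr15:78142957-78143157 and chr15:78149224-78149424 on the plus strand, with capitals for the run of 117 bases that each shares, inverted, with the other. The last line is the window at the shared site 37539 bp downstream of the *Csf2rb2* start site (24.2-fold), at chr15:78098413-78098613 on the plus strand, with the GATA pattern AGATAA in capitals. All are 5′ to 3′.
Csf2rb2 upstream: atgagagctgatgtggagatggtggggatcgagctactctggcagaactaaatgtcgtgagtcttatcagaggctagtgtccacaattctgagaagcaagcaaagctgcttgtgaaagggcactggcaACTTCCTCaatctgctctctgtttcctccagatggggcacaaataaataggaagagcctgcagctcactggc
ETO2-only site near Csf2rb2: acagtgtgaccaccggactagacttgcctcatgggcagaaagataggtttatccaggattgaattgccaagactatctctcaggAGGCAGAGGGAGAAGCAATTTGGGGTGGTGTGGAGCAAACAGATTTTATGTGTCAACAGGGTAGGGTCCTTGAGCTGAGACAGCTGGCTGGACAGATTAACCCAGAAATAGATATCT
ETO2-only site near Csf2rb: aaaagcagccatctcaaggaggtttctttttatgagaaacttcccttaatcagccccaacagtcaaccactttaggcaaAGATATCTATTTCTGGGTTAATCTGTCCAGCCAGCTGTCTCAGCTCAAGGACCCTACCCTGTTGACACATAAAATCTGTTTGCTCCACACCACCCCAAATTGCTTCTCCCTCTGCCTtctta
Shared site downstream of Csf2rb2: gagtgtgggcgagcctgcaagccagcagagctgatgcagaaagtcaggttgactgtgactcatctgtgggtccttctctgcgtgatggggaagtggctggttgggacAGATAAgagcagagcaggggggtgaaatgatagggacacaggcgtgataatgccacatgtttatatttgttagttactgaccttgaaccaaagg

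The 2 ETO2-only windows share an inverted run of 117 of their 201 bases, and their centres are placed evenly about the middle of the gene pair. The midpoint of the centres is at 78146190 and that of the start sites at 78146236. In windows of 1001 bases, 48.7% of the runs of 20 bases at one ETO2-only site were found inverted at the other, and 23.6% of those at one start site were found inverted at the other. Per the methods only reads with a single mapping position entered the ChIP coverage, and the part of the copies in the enrichment of the sites was not tested. The 2 genes are near copies in their transcripts too. Of the 5067 windows of 50 bases in *Csf2rb* transcripts 17.4% occur in *Csf2rb2* transcripts, and with 36 bases 23.7%. The read length and the treatment of reads that map to both genes are not given in the sources used here, so the values of the 2 genes are uncertain to that extent and may not be independent of each other.

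**Figure D2:**
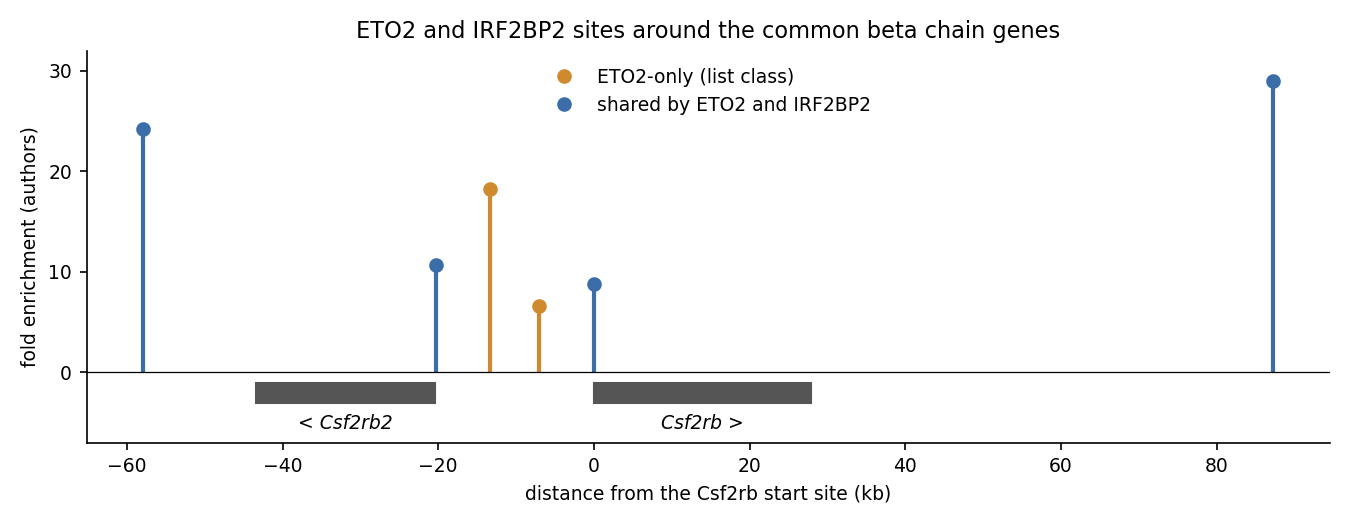
Fold enrichment over IgG in the authors' list (vertical axis) of the 6 sites within 100 kb of the *Csf2rb* start site, against distance from it in kb (horizontal axis), with the bodies of both genes below. Shared sites are blue and ETO2-only sites orange, and 4 of the 6 lie between or at the 2 start sites.

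In the *Cbfa2t3* table *Csf2rb* stood at 137.0 and 137.8 CPM in the controls, at 197.6 and 223.8 CPM with sh2 and at 289.5 and 319.1 CPM with sh3. All 4 KD libraries were above both controls, and the sh3 libraries were above the sh2 libraries. The log2 fold change of *Csf2rb* was 0.91 (SE 0.18, adjusted p = 0.0121, edgeR's quasi-likelihood test adjusted over 12537 genes). The sh2 libraries alone gave 0.61 and the sh3 libraries alone 1.14. *Cbfa2t3* itself was lower with sh3 (123.1 and 145.3 CPM) than with sh2 (202.0 and 243.5 CPM). *Csf2rb* was the 1 member called of 3 tested, where 2.99% of all tested genes were called higher, 2.75% lower and 5.74% in either direction. Without control replicate 1 the adjusted p of *Csf2rb* was 0.136 and without control replicate 2 it was 0.119, at log2 fold changes of 0.90 and 0.91.

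*Csf2rb2* moved further in the same libraries. It went from 40.4 and 41.7 CPM in the *Cbfa2t3* controls to 79.3 and 95.7 CPM with sh2 and 131.1 and 150.7 CPM with sh3, a log2 fold change of 1.48 (SE 0.24, adjusted p = 0.00491 in the same edgeR test). Leaving out control replicate 1 or 2 took the adjusted p of *Csf2rb2* to 0.0843 or 0.0656.

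In the *Irf2bp2* table *Csf2rb* stood at 101.1 and 109.8 CPM in the controls, with 208.7 and 191.2 CPM under KD. The groups did not overlap, and the log2 fold change was 0.92 (SE 0.09, adjusted p = 2.28e-07, edgeR's quasi-likelihood test adjusted over 12329 genes). *Csf2rb2* went from 27.8 and 28.3 CPM to 73.6 and 65.9 CPM (log2 fold change 1.31, SE 0.09, adjusted p = 4.03e-09 in the same edgeR test). *Csf2rb* was again the 1 member called of 3 tested. Of all tested genes 10.1% were called higher in this KD, 12.5% lower and 22.5% in either direction.

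In the *Kdm1a* table *Csf2rb* had 147.2 CPM in the control, against 347.1 and 332.6 CPM under KD, a mean log2 difference of 1.21 with a prior count of 2. *Csf2rb2* had 43.9 CPM in the control, against 139.1 and 126.7 CPM under KD, a mean log2 difference of 1.60. Both KD libraries lay well above the control for both genes, but with 1 control its own spread is not known. The calls of this table therefore use no test. In an alternative fit in which the control is assumed to vary like the 2 KD libraries, edgeR's quasi-likelihood test gave an adjusted p of 5.06e-11 for *Csf2rb* and 1.49e-12 for *Csf2rb2*. *Csf2rb* was the 1 member past the limit of 3 measured, where 13.1% of genes were past it in the higher direction, 9.8% in the lower and 22.9% in either.

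In the *Gfi1b* table *Csf2rb* stood at 207.7 and 212.1 CPM in the controls, at 632.8 CPM in the library labelled KD replicate 1 and at 538.3 CPM in the library labelled KD replicate 2. Both are well above both controls, although *Gfi1b* RNA itself was above the controls in 1 of these libraries and below them in the other. The log2 fold change of *Csf2rb* was 1.48 (SE 0.20, adjusted p = 0.553, edgeR's quasi-likelihood test adjusted over 11190 genes). *Csf2rb2* went from 55.6 and 66.7 CPM to 297.5 and 236.0 CPM, a log2 fold change of 2.13 (SE 0.23, adjusted p = 0.396 in the same edgeR test). No member was called, and neither was any other gene: edgeR called 0 of 11190 genes (0% in either direction), with 784 genes at an unadjusted p under 0.05, of which 1 was a member. DESeq2 called 59 genes, *Csf2rb* among them (adjusted p = 3.58e-07). Without the library labelled KD replicate 1 edgeR called 396 genes and gave *Csf2rb* a log2 fold change of 1.36 (adjusted p = 4.28e-17), and without the library labelled KD replicate 2 it called 3148 genes and gave 1.57 (adjusted p = 2.16e-14). The log2 fold change of *Csf2rb2* was 1.95 and 2.27 in these fits (adjusted p = 3.42e-30 and 2.72e-21). In them the remaining KD library is assumed to vary like the controls.

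On induction *Csf2rb* did not follow this pattern. It stood at 578.3 and 345.1 CPM in non-induced and at 625.5 and 393.2 CPM in induced cells, so the groups overlapped and replicate 1 was the higher library in both. The log2 fold change of *Csf2rb* was 0.14 (SE 0.30, adjusted p = 0.761 in edgeR's quasi-likelihood test). *Csf2rb2* stood at 246.5 and 133.6 CPM before and at 325.4 and 186.1 CPM after induction (log2 fold change 0.43, adjusted p = 0.344 in the same edgeR test). None of the 3 members tested was called, although 12.4% of all genes were called higher on induction, 14.8% lower and 27.2% in either direction. At an unadjusted p under 0.05 the number of members was also 0, by edgeR and by DESeq2, whereas 4608 genes passed that limit by edgeR and 4453 by DESeq2.

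**Figure D3:**
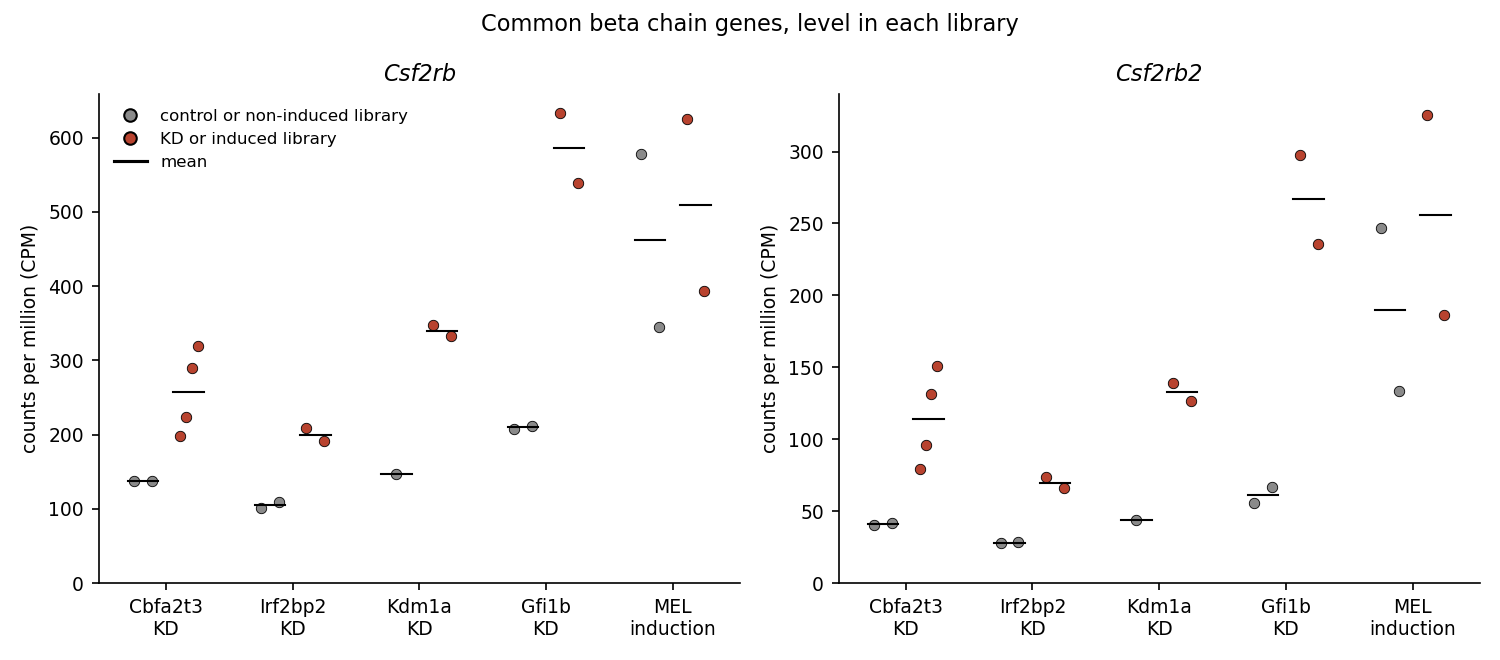
Level of *Csf2rb* (left) and *Csf2rb2* (right) in CPM, scaled by library size and TMM factor, in each library of the 5 comparisons. Grey points are control or non-induced libraries, red points KD or induced libraries and bars the means. In each of the 4 KDs every red point lies above the grey points, and on induction they overlap. The higher red point of the *Gfi1b* KD in each panel is the library labelled replicate 1, in which *Gfi1b* RNA was above the controls.

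The fold changes of the KDs were compared in 1 edgeR fit over the libraries of the 4 replicated experiments, with 13620 genes. The log2 fold change of *Csf2rb* in the *Cbfa2t3* KD minus that in the *Irf2bp2* KD was -0.03 (SE 0.33, adjusted p = 0.985), and against the *Gfi1b* KD the differences were -0.51 (SE 0.33, adjusted p = 0.419) for *Cbfa2t3* and -0.48 (SE 0.36, adjusted p = 0.421) for *Irf2bp2*. None of these passed, and their standard errors leave room for differences of more than 0.5. The fold change in the *Gfi1b* KD exceeded that on induction by 1.33 for *Csf2rb* (SE 0.36, adjusted p = 0.0272) and by 1.69 for *Csf2rb2* (SE 0.44, adjusted p = 0.0231). Without the library labelled *Gfi1b* KD replicate 1 these differences were 1.21 and 1.51 (adjusted p = 0.0256 and 0.0227), and without replicate 2 they were 1.42 and 1.83 (adjusted p = 0.0354 and 0.0288), in edgeR fits added after the values were seen. The *Cbfa2t3* and *Irf2bp2* KDs exceeded induction by 0.82 and 0.85 for *Csf2rb*, with adjusted p values of 0.0818 and 0.0978 in the same edgeR fit.

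Per gene length, in the authors' RPKM, reads scaled by gene length and library size, *Csf2rb* was the most abundant member in every library. Its RPKM ran from 21.7 in an *Irf2bp2* control to 134.4 in an induced library. Across controls its RPKM was 21.7 and 23.8 in the *Irf2bp2* table, 29.3 and 29.5 in the *Cbfa2t3* table, 31.1 in the *Kdm1a* table, 44.2 and 45.5 in the *Gfi1b* table and 126.6 and 72.0 in non-induced cells. The tables were normalized separately, and the *Cbfa2t3* and *Kdm1a* controls lie next to each other in this order. The RPKM of *Csf2rb2* as a ratio to that of *Csf2rb* was 0.259 to 0.316 in the 7 KD controls and 0.351 to 0.488 in the 10 libraries labelled KD, with no overlap. The library labelled *Gfi1b* KD replicate 1, with *Gfi1b* RNA above its controls, was at 0.480 and set neither end of the range. In the differentiation experiment the ratio was 0.436 and 0.397 before and 0.534 and 0.484 after induction.

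*Prtn3*, the azurophil granule protease gene next to *Elane*, was the 1 measurable gene of the 4 granule members. It stood at 9.16 and 9.31 CPM in the *Cbfa2t3* controls, at 11.1 and 8.92 CPM with sh2 and at 12.1 and 10.9 CPM with sh3. The groups overlapped (log2 fold change 0.22, SE 0.12, adjusted p = 0.317, edgeR's quasi-likelihood test). In the *Irf2bp2* table *Prtn3* went from 12.7 and 16.4 CPM to 17.9 and 19.8 CPM. This difference passed the test but not the limit on the fold change (log2 fold change 0.38, SE 0.12, adjusted p = 0.0166 in the same test), and it did not keep its side with a library left out. Without control replicate 2 it was 0.58 (adjusted p = 8.35e-05) and passed both limits, without control replicate 1 it was 0.21 (adjusted p = 0.202), and without KD replicate 1 or 2 it was 0.46 or 0.31 (adjusted p = 0.0598 or 0.137). In the *Kdm1a* table the *Prtn3* level was 10.7 CPM in the control, against 11.9 and 11.5 CPM under KD.

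The lowest *Prtn3* levels were those of the *Gfi1b* and non-induced libraries. Its counts in the *Gfi1b* table were 26 and 29 in the controls, 120 in the library labelled KD replicate 1 and 47 in the library labelled KD replicate 2, which is 1.78, 2.92, 6.38 and 3.99 CPM. The *Prtn3* groups did not overlap, but the difference did not pass (log2 fold change 1.16, SE 0.56, adjusted p = 0.704, edgeR's quasi-likelihood test). Without the library labelled KD replicate 1 the log2 fold change was 0.78 and without replicate 2 it was 1.44, with adjusted p values of 0.667 and 0.0511. In the fit over the 4 replicated tables without the library labelled KD replicate 2, added after the values were seen, the fold change of *Prtn3* in the *Gfi1b* KD exceeded that in the *Cbfa2t3* KD (*Cbfa2t3* minus *Gfi1b* KD -1.19, adjusted p = 0.0223) and the *Irf2bp2* KD (-1.02, adjusted p = 0.048), and without replicate 1 neither difference passed (adjusted p = 0.447 and 0.544). On induction *Prtn3* went from 5.03 and 6.05 CPM to 9.74 and 9.42 CPM, also without overlap, with a log2 fold change of 0.79 (SE 0.40, adjusted p = 0.153 in the same test).

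*Cebpb* codes for a C/EBP factor that many cell types use, in myeloid cells above all in emergency granulopoiesis and macrophages. Its level in the *Cbfa2t3* controls was 24.9 and 22.6 CPM, with 14.3 and 18.8 CPM in the sh2 libraries and 23.4 and 27.4 CPM in the sh3 libraries. The hairpins thus lay on either side of the controls or among them. Pooled, the *Cebpb* log2 fold change was -0.18 (SE 0.21, adjusted p = 0.656 in edgeR's quasi-likelihood test), and with sh2 alone it was -0.52 (adjusted p = 0.00738), a call that sh3 alone (0.10) did not share. In the *Irf2bp2* table *Cebpb* stood at 19.9 and 20.7 CPM in the controls, with 16.7 and 18.7 CPM under KD (log2 fold change -0.20, adjusted p = 0.124 in the same test).

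In the *Kdm1a* table *Cebpb* had 14.9 CPM in the control, against 20.2 and 22.2 CPM under KD. The log2 differences were 0.44 and 0.57, so 1 of the 2 libraries was short of the limit and the gene was not called. In the alternative edgeR fit that assumes the control to vary like the KD libraries, *Cebpb* had an adjusted p of 0.000257 and was called, so its call rests on that assumption. The *Gfi1b* table has *Cebpb* at 6.37 and 8.26 CPM in the controls, at 9.20 CPM in the library labelled KD replicate 1 and at 9.25 CPM in the library labelled KD replicate 2 (log2 fold change 0.34, adjusted p = 0.834 in edgeR's test). Without the library labelled KD replicate 1 or 2 the *Cebpb* log2 fold change was 0.34 or 0.32 (adjusted p = 0.764 or 0.586). On induction *Cebpb* stood at 7.47 and 6.14 CPM before and 9.26 and 3.54 CPM after, with overlapping groups.

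**Figure D4:**
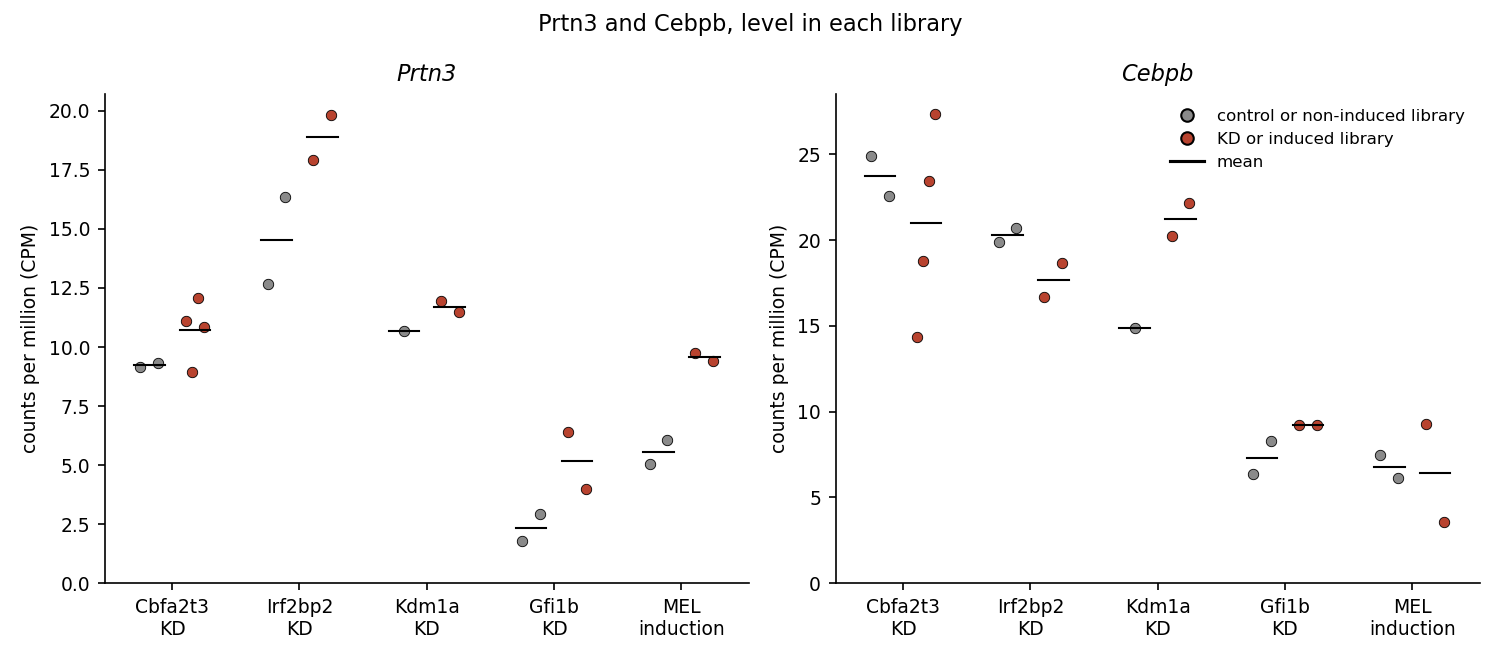
Level of *Prtn3* (left) and *Cebpb* (right) in CPM in each library of the 5 comparisons, with control or non-induced libraries in grey, KD or induced libraries in red and bars for the means. *Prtn3* lies between 1.78 and 19.8 CPM and *Cebpb* between 3.54 and 27.4 CPM, and neither was called in any comparison.

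Around the other members the site list held no pattern like that of *Csf2rb*. At least 1 site lay within 100 kb of the start site of 8 of the 10 members, and of 60.8% of all 22380 protein-coding genes. A shared site within 1 kb of the start site was listed for 1 member, *Csf2rb*, and for 0.688% of all genes. *Mpo* had 13 sites within 100 kb, the nearest 33835 bp away, and none had *Mpo* as its nearest gene. *Prtn3* and *Elane*, neighbours on chromosome 10, had 7 and 8 sites, of which the IRF2BP2-only site from 79339773 to 79340349 lies in an intron of *Prtn3* (11.5-fold) and the one from 79346381 to 79346961 lies 2424 bp upstream of *Elane* (7.67-fold). *Cebpb* had 7 sites, the nearest 16409 bp upstream, and *Csf1r* had 4, of which 1 IRF2BP2-only site lies in its own intron 22167 bp downstream of the start site (5-fold). *Ctsg*, whose gene stands in the cluster of mast cell protease genes on chromosome 14, had 2, one shared and one ETO2-only, whose nearest genes were *Mcpt4* and *Mcpt2*. *Fcer1g* had 1 site, and *Cebpa* and *Itgam* had 0.

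Short sequence patterns were searched in the promoters and at the sites. In the RefSeq promoters of GRCm38.p6 (250 bases before to 50 after the start), found for 8 members and *Csf2rb2*, the PU.1 pattern GAGGAAGT occurred in those of *Mpo*, *Prtn3*, *Elane* and *Csf2rb2*, and in 3.20% of all 32851 promoters (both strands). *Csf2rb* and *Csf1r* had no entry and were not searched. The patterns AGATAA, bound by GATA1 and its relatives and held by 11.2% of all promoters, AATCNC, that of GFI1 and GFI1B, held by 33.2%, and the C/EBP pattern, TTNNGCAA or TTGCNNAA, held by 10.8%, occurred in none of these promoters. Other forms of the GATA motif WGATAR were not searched. The stretch upstream of *Csf2rb2* shown above holds TGATAA, such a form, on the opposite strand. GGAAGT, the core that GAGGAAGT contains, also occurred in that of *Ctsg*, and in 23.8% of all promoters. At the sites, AGATAA was found in 56.1% of ETO2-only windows of 201 bases, 58.4% of shared and 22.6% of IRF2BP2-only windows, in neither of the ETO2-only windows between the 2 β-chain genes and in that downstream of *Csf2rb2*. The ETO2-only window nearer to *Csf2rb* held a C/EBP match, as did 7.67% of ETO2-only windows, and the core GGAAGT, as did 19.7%, and the window downstream of *Csf2rb2* also held this core, as did 24.7% of shared windows. A match is a description of the letters and not evidence of binding.

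Other genes of the same lineages were followed as lists. Of 17 granule and neutrophil genes, 4 were measurable in the *Cbfa2t3* KD and all 4 fell, where 2.75% of all genes tested did: *Ctsc*, the protease that activates granule serine proteases, by a log2 of 0.66, *Serpinb1a*, an inhibitor of them, by 1.01, the granule proteoglycan *Srgn* by 0.97 and the cystatin *Cst7* by 0.76. In the *Irf2bp2* KD 3 of 4 fell (*Ctsc*, *Srgn* and *Cst7*), where 12.5% of all genes did, and on induction 4 of 4, where 14.8% did, *Cst7* by a log2 of 3.17. In the *Kdm1a* KD 2 of 5 were higher (13.1% of all genes) and none lower (9.8%), with *Mmp9* at 8 reads in the control and 22 and 45 in the KD libraries, through which alone it passed the filter on low counts, and *Cst7* at 12.8 CPM in the control and 20.6 and 23.8 CPM. The median log2 fold change of the list was -0.86, -0.65, 0.60, 0.02 and -1.89 in the *Cbfa2t3*, *Irf2bp2*, *Kdm1a* and *Gfi1b* KDs and on induction, where the median over all genes lay between -0.02 and 0.02.

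Of 17 monocyte and macrophage receptors, *Csf2rb2* included, 1 rose and 3 fell of 9 tested in the *Cbfa2t3* KD (2.99% and 2.75% of all genes), and 1 rose and 4 fell of 9 in the *Irf2bp2* KD (10.1% and 12.5%). The Fc receptor genes *Fcgr3* and *Fcgr2b* and *Tyrobp*, a signalling adaptor related to the Fc receptor γ-chain, fell in both, by a log2 of 1.60, 1.31 and 1.39 in the *Cbfa2t3* KD and 2.45, 1.60 and 1.46 in the *Irf2bp2* KD. In the *Kdm1a* KD 6 of 9 were higher and 1 was lower, against 13.1% and 9.8% of all genes: *Fcgr2b* had 3.86 CPM in the control and 8.92 and 9.71 CPM in the KD libraries, *Tyrobp* 2.66 against 6.10 and 5.91 CPM, and *Cd68*, a lysosomal protein of macrophages, a mean log2 difference of 1.00. The lower gene was *Fcgr1*, the high-affinity IgG receptor, at 2.86 CPM in the control and 1.29 and 1.73 CPM in the KD libraries, and it also fell in the *Irf2bp2* KD (log2 -1.16), so the Fc receptor genes did not all run opposite ways in these KDs. On induction 3 of 7 fell and none rose, against 14.8% and 12.4% of all genes. In the *Gfi1b* KD none of 7 tested was called, as was no other gene (0%), and their median log2 fold change was 1.07. The fold change of *Fcgr2b* differed between the *Cbfa2t3* and *Kdm1a* KDs by a log2 of -2.59 (SE 0.73, adjusted p = 0.0489) and between the *Irf2bp2* and *Kdm1a* KDs by -2.88 (SE 0.78, adjusted p = 0.0274) in an edgeR fit over all 5 tables. This fit was added after the opposite directions were seen and assumes the single *Kdm1a* control to vary like the other groups, so it is not independent evidence of them. For *Tyrobp* the same differences did not pass in this fit (adjusted p = 0.118 and 0.101), but passed without the library labelled *Gfi1b* KD replicate 1 (-2.55 and -2.62, adjusted p = 0.0253 and 0.0225 in edgeR's test) and without replicate 2 (adjusted p = 0.0273 and 0.0246).

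Of 8 myeloid transcription factors, 1 of 4 tested rose in the *Cbfa2t3* KD (2.99% of all genes), 2 of 3 in the *Irf2bp2* KD (10.1%) and 1 of 2 on induction (12.4%), where the other fell (14.8%), and in the *Kdm1a* KD 3 of 5 were higher (13.1%) and 1 lower (9.8%). *Runx1*, needed for blood stem cells and megakaryocytes as well, rose in the *Cbfa2t3* KD (log2 0.58), the *Irf2bp2* KD (0.88) and on induction (1.24), and had a mean log2 difference of 0.72 in the *Kdm1a* KD. *Spi1*, which codes for PU.1 and is active in MEL cells because a virus inserted near it, rose in the *Irf2bp2* KD (0.57), was higher in the *Kdm1a* KD (0.59) and fell on induction (-1.66). *Gfi1*, the relative of *Gfi1b* that acts in granulocytes and that GFI1B is known to repress, had 4 reads in the *Kdm1a* control and 59 and 54 in the KD libraries, and passed the filter through these alone. *Egr2*, a factor of macrophages and other cells, had 40 reads in that control and 23 and 20 in the KD libraries, a mean log2 difference of -0.87. *Gfi1b* was also higher in the *Kdm1a* KD, at 168.0 CPM in the control and 377.3 and 356.4 CPM. *Gfi1* itself had 11 and 5 control reads in the *Gfi1b* table, 28 in the library labelled KD replicate 1 and 13 in the library labelled KD replicate 2 (log2 fold change 1.03, adjusted p = 0.770 in edgeR's test).

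Of 13 genes of mast cells, basophils and eosinophils, 4 of 5 were higher and 1 lower in the *Kdm1a* KD, where 13.1% of all genes were higher and 9.8% lower. *Cpa3*, a mast cell carboxypeptidase, had 1 read in the control and 16 and 8 in the KD libraries, *Prg2*, the eosinophil major basic protein, 15 against 58 and 39, and the chymase *Cma1* 0 against 1 and 15, of which 1 library made nearly all. *Cpa3* and *Cma1* passed the filter through the KD libraries alone, so they could only come out higher. *Hdc*, the histamine-producing enzyme, had 14.3 CPM in the control and 38.3 and 36.1 CPM in the KD libraries. *Hdc* fell in the *Cbfa2t3* KD (log2 -0.71), the *Irf2bp2* KD (-0.56) and on induction (-2.46). With *Il1rl1*, that made 1 of 3 higher and 1 lower in the *Cbfa2t3* KD, 2 of 3 lower in the *Irf2bp2* KD and 2 of 5 lower on induction, against 2.99%, 2.75%, 12.5% and 14.8% of all genes in turn. On induction *Il1rl1* passed the filter through the non-induced libraries alone, so it could only come out lower. *Il1rl1*, the IL-33 receptor, rose in the *Cbfa2t3* KD (log2 1.02), fell in the *Irf2bp2* KD (-1.04) and on induction (-5.07), and was lower in the *Kdm1a* KD (-1.49). *Cma1* in the *Gfi1b* table stood at 7.19 and 6.65 CPM in the controls, at 38.6 CPM in the library labelled KD replicate 1 and at 74.6 CPM in the library labelled KD replicate 2 (log2 fold change 3.03, SE 0.38, adjusted p = 0.518 in edgeR's quasi-likelihood test). *Hdc* stood there at 39.9 and 43.5 CPM in the controls and 63.8 and 134.2 CPM in the libraries labelled KD. The *Gfi1b* values of these genes were singled out after they were seen, since edgeR called none in that table.

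Lymphoid and megakaryocyte genes served as a check on other cell types. Of 7, the 5 or 6 listed in each table summed to between 0.621 and 5.83 CPM per library, and 2 of 4 (*Cd3g* and *Cd79a*) were higher and 1 (*Cd79b*) lower in the *Kdm1a* KD, at the same shares of all genes, with *Cd3g* and *Cd79a* passing the filter through the KD libraries alone. Of 3 lymphoid genes tested on induction *Cd79b* fell, to 0 reads in both induced libraries, and had passed the filter through the non-induced libraries alone. Of 6 megakaryocyte genes tested, 2 rose in the *Cbfa2t3* KD and 6 in the *Irf2bp2* KD, 2 rose and 1 fell on induction (*Ppbp*, which passed the filter through the non-induced libraries alone), and in the *Kdm1a* KD 1 was higher (*Ppbp*, by a mean log2 difference of 2.75) and 1 lower, against the shares of all genes given above. None of 5 megakaryocyte genes tested in the *Gfi1b* KD was called. Their list summed to 181 CPM in 1 library labelled *Gfi1b* KD and 918 CPM in the other, with 227 and 293 CPM in the controls. The part of lymphoid and megakaryocyte genes in the myeloid values was not tested. The defining genes of neutrophils and macrophages, *Mpo*, *Elane*, *Csf1r* and *Itgam*, were at 0 to 8 reads in these same libraries.

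**Figure D5:**
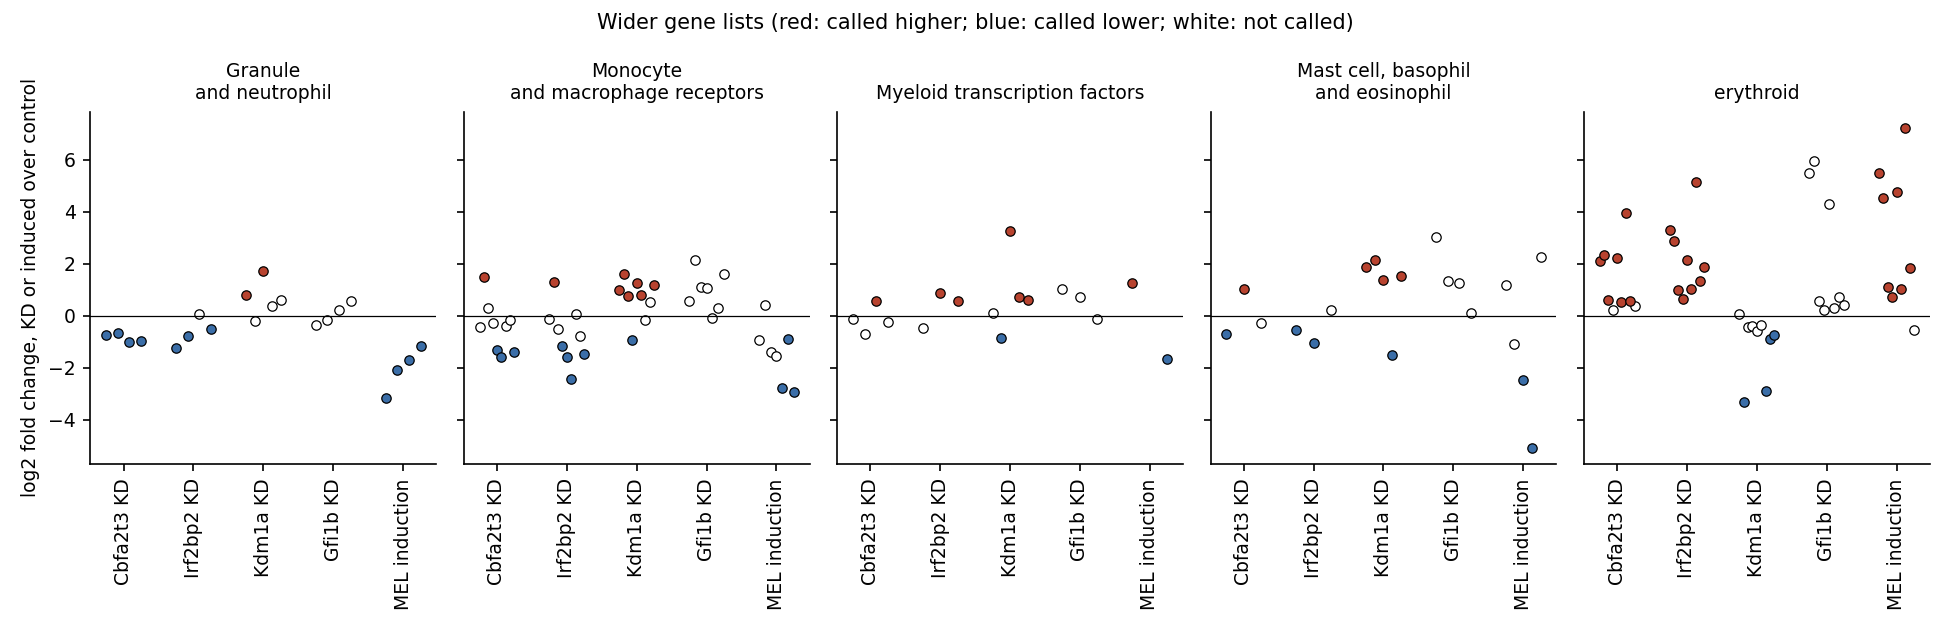
Log2 fold change, KD over control or induced over non-induced (vertical axis), of each tested gene of 4 myeloid lists and the erythroid list in the 5 comparisons. Red points were called higher, blue points lower and white points not called, and in the *Gfi1b* KD edgeR called none. Of the 4 granule genes tested, 4 are blue in the *Cbfa2t3* KD, 3 in the *Irf2bp2* KD and 4 on induction, and the red points of the receptor and mast cell lists are mostly those of the *Kdm1a* KD. The *Kdm1a* points were called by the fold limit alone, without a test, unlike those of the other comparisons. Of them *Cpa3*, *Cma1*, *Mmp9* and *Gfi1* passed the filter through the KD libraries alone and could only come out higher.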

How the data were processed

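Only RNA-Seq tables and a binding-site list of MEL cells were used. Per the labels and methods, TruSeq libraries were sequenced, and the authors mapped reads with TopHat2 to mm9 and counted them per RefSeq gene. Each deposited table holds raw counts, which were used for all tests, and RPKM values, normalized by the authors for length and depth and used only for levels between genes. It also holds the authors' DESeq2 comparisons, which were not used. The deposited site list combines peaks of ETO2 and IRF2BP2 and gives a fold enrichment (ratio over IgG) and an adjusted p-value. It names no sample for them, so the antibody behind the value of a shared site is not known. The series holds 1 IRF2BP2 ChIP library and none of ETO2, and the paper lists ETO2 ChIP-Seq among the published data it used. No replicate of a site is given. Its class codes carry no key and were read from the class sizes the study gives.

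The counts were tested with edgeR 4.0.16 under R 4.3.3 (TMM, filterByExpr, quasi-likelihood test), each table alone and all libraries of a table together, with Benjamini-Hochberg adjustment over all genes tested. The *Kdm1a* table, with 1 control, was described by log2 CPM differences with a prior count of 2. CPM are scaled by library size and TMM factor. Differences between KDs came from 1 edgeR fit over 4 tables, and fits with the *Kdm1a* table, or without each library labelled *Gfi1b* KD, were added after seeing the data. Python 3.11.15 (scipy 1.17.1, pandas 2.3.3, numpy 2.4.6) was used for sites and sequences, which were read from mm9 with the GENCODE annotation, and matplotlib 3.10.9 for plots. Confidence intervals are exact 95% binomial intervals and cover counting error only.

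Depth was 9929311 to 57684583 counts per library. Replicate pairs differed by more than sampling noise (chi-square per degree of freedom 8.73 to 99.7). In the *Cbfa2t3* table libraries with the same replicate number deviated together (r of 0.252, 0.118 and 0.246 across genes), so the numbers were taken to pair them. On induction r was 0.196, within this range, so the numbers may pair those libraries too. The fit without the block was kept as the main one.

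The members and lists were chosen with earlier results of these data known. The genes named are the 10 members, the 4 targeted genes, *Csf2rb2* and, of each list in each comparison, up to 4 called genes with the largest change. Genes named beyond this rule were chosen after their values were seen. They are *Hdc*, *Cma1*, *Gfi1*, *Fcgr1*, *Fcgr2b*, *Fcgr3*, *Tyrobp* and *Cst7* where they were not called or not among the 4, and the lymphoid genes. *Gata1* and *Klf1* were named only as examples of the erythroid list, also beyond this rule. Of the lists, *Sfpi1* and *Chi3l3* were matched as *Spi1* and *Chil3* by RefSeq synonyms, and *Ngp*, *S100a8*, *S100a9* and *Mcpt8* were in none of the tables. Alternatives were DESeq2's size factors, DESeq2 1.42.0, no filter, a minimum of 10 counts in each library, the replicate block, no fold limit, a prior count of 0.5, each hairpin alone, each library left out, and site windows of 20 and 500 kb.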

Additional observations from a re-analysis of the deposited data

Results flagged for a closer look

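Effects that differed between comparisons, each with an adjusted p of 0.05 or less in edgeR's quasi-likelihood test of the difference, are given here as log2 fold changes of the first comparison minus the second. *Csf2rb* and *Csf2rb2* in the *Gfi1b* KD exceeded induction by 1.33 and 1.69. *Spi1* differed from induction by 1.49 in the *Cbfa2t3* KD, 2.30 in the *Irf2bp2* KD and 1.53 in the *Gfi1b* KD, where induction lowered it (log2 fold change -1.66). *Il1rl1* differed from induction by 6.13 in the *Cbfa2t3* KD, 4.09 in the *Irf2bp2* KD and 5.17 in the *Gfi1b* KD. In the fit with the *Kdm1a* table, chosen after seeing the data and with its single control assumed to vary like the other groups, 31 of 120 differences passed, 22 of them against induction. *Il1rl1* in the *Cbfa2t3* KD exceeded the *Kdm1a* KD by 2.51. Its difference between the *Cbfa2t3* and *Irf2bp2* KDs was 2.06 (adjusted p = 0.0322) in this fit and 2.05 (adjusted p = 0.0652) in the edgeR fit over 4 tables. It passed in that fit without the library labelled *Gfi1b* KD replicate 1 (2.06, adjusted p = 0.00602) and without replicate 2 (2.05, adjusted p = 0.00643). *Cst7* differed from the *Kdm1a* KD by -1.57 in the *Cbfa2t3* KD and by -2.05 in the *Irf2bp2* KD. *Fcgr2b* differed from it by -2.59 and -2.88 in the same KDs, and *Fcgr3* by -3.25 in the *Irf2bp2* KD. *Cst7*, *Fcgr2b* and *Fcgr3* were lower in the *Cbfa2t3* and *Irf2bp2* KDs and higher in both *Kdm1a* KD libraries. In the *Irf2bp2* KD *Fcgr2b* and *Tyrobp* also differed from the *Gfi1b* KD, by -2.65 and -3.04. From the *Cbfa2t3* KD to the *Gfi1b* KD they differed by -2.36 and -2.97, which did not pass. Without *Gfi1b* KD replicate 1 these were -2.79 and -3.56, and without replicate 2 they were -1.76 and -1.97. *Cst7* in the *Kdm1a* KD minus the *Gfi1b* KD was 1.18, which did not pass, 0.78 without replicate 1 and 1.67 without replicate 2. Against induction, *Cst7* differed by 2.41 in the *Cbfa2t3* KD, 1.93 in the *Irf2bp2* KD, 3.98 in the *Kdm1a* KD and 2.80 in the *Gfi1b* KD. The *Kdm1a* KD differed from induction by 2.27 for *Spi1*, 3.59 for *Il1rl1*, 3.84 for *Hdc*, 2.83 for *Fcgr2b*, 3.60 for *Fcgr3* and 4.12 for *Tyrobp*. The *Gfi1b* KD differed from induction by 3.69 for *Hdc*, 2.60 for *Fcgr2b*, 2.68 for *Fcgr3* and 4.51 for *Tyrobp*. The *Gfi1b* values include the library labelled *Gfi1b* KD replicate 1, in which *Gfi1b* RNA was not lower. In the 2 libraries labelled KD *Cst7* stood at 17.3 and 31.98 CPM (controls 31.2 and 31.8), *Fcgr2b* at 5.11 and 10.3 (3.70 and 3.63), *Fcgr3* at 2.77 and 6.53 (3.97 and 5.94) and *Tyrobp* at 6.01 and 17.98 (3.49 and 4.43). Without the library labelled KD replicate 1 the differences from induction of *Hdc*, *Cst7*, *Fcgr2b*, *Fcgr3* and *Tyrobp* were 4.13, 3.18, 3.03, 3.21 and 5.13, and all 5 passed. Without replicate 2 they were 3.05, 2.29, 2.01, 1.97 and 3.54, and those of *Hdc*, *Fcgr2b* and *Fcgr3* did not pass (adjusted p = 0.0528, 0.0811 and 0.0818 in edgeR's test). Between the *Irf2bp2* and *Gfi1b* KDs *Fcgr2b* differed by -3.08 and *Tyrobp* by -3.64 without replicate 1, where *Cst7* (-1.24) and *Fcgr3* (-2.85) passed as well, and by -2.05 and -2.05 without replicate 2, where *Tyrobp* did not pass (adjusted p = 0.0605 in edgeR's test). Without replicate 1, *Spi1* and *Il1rl1* exceeded induction by 1.86 and 5.69 in the fit over 4 tables, and without replicate 2 by 1.06 and 4.43, of which 1.06 did not pass (adjusted p = 0.142 in edgeR's test). Without replicate 1 *Il1rl1* also differed between the *Irf2bp2* and *Gfi1b* KDs (-1.67, adjusted p = 0.036), and without replicate 2 between the *Cbfa2t3* and *Gfi1b* KDs (1.69, adjusted p = 0.0209).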

How the results depend on the processing

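None of the log2 fold changes of *Csf2rb*, *Csf2rb2*, *Prtn3* and *Cebpb* that were called reversed under any of the alternatives, and 187 of 204 alternatives kept the side of the limits. In the *Cbfa2t3* KD the 1 member called became 2 with sh2 alone (*Cebpb* added) and 0 to 1 with a library left out, 0 without either control. In the *Irf2bp2* KD it became 2 (*Prtn3* added) with no fold limit, and 1 to 2 with a library left out. In the *Kdm1a* KD the 1 member became 6 with no filter, where the added ones are members with 0 to 8 reads, 2 by edgeR with 1 control (*Cebpb* added), and 1 to 2 with a KD library left out. In the *Gfi1b* KD the 0 members called became 1, *Csf2rb*, with DESeq2, 1 with no filter, and 0 to 1 with a library left out. The number of all genes called there was 0, against 59, 411 and up to 3148 in these fits, and *Csf2rb* had adjusted p values from 4.28e-17 to 1.00 over its alternatives. The cause was not tested. Fewer genes were also called in the *Cbfa2t3* KD without either control, and on induction without either non-induced library. The shares of all genes given for these comparisons depend on those libraries. Of the members' differences between replicated comparisons, 1 passed (*Csf2rb*, *Gfi1b* KD minus induction), and 1 to 3 did with a library labelled *Gfi1b* KD left out, *Prtn3* being added without replicate 2. The 41 distinct sites within 100 kb of a member became 6 within 20 kb and 194 within 500 kb, by construction of the window. The replicate block changed no call of a member and gave *Csf2rb* a log2 fold change of 0.90 (adjusted p = 0.0296) in the *Cbfa2t3* KD, 0.92 in the *Irf2bp2* KD, 1.48 in the *Gfi1b* KD and 0.15 on induction. Libraries with the same number correlated with r of 0.0251 and 0.00153 in the *Irf2bp2* and *Gfi1b* tables. On induction r was 0.196, within the range of the *Cbfa2t3* table, and 3916 genes were called with the block against 3187 without it. Members under 3 reads are limited by depth, most of all in the *Gfi1b* and differentiation libraries.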
